A study of Mus musculus with 12 samples.

Results

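The genes described are 8 members of the Slc16 family, which encodes the monocarboxylate transporters (MCT): Slc16a1, Slc16a4, Slc16a6, Slc16a7, Slc16a9, Slc16a10, Slc16a13 and Slc16a14. They are 8 of the 19938 genes measured on these arrays, and 13 family genes are described in all. The members were named with earlier results of these arrays known, and their probe sets were chosen by the mean over the 12 arrays, the highest being used where a gene had more than 1. The counts over the 8 members are therefore a description and are not independent evidence of a direction.

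RNA from mouse renal cortex, amplified before labelling, was hybridised to 12 Affymetrix arrays, 3 in each of 4 groups. GR-deficient mice were Pax8-Cre;nr3c1 flox/flox, and nr3c1 encodes the glucocorticoid receptor (GR), a hormone-activated transcription factor. Pax8-Cre is a recombinase made in kidney tubule epithelium. Control mice were labelled nr3c1 flox/flox with no recombinase named, so a difference between genotypes includes any effect of Pax8-Cre itself. The first group was GR-deficient mice with acute kidney injury (AKI), the second GR-deficient healthy mice, the third control mice with AKI, and the fourth control healthy mice. AKI followed an injection of glycerol into muscle 24 hours before dissection, a treatment that breaks down muscle and exposes the kidney to myoglobin. Healthy mice were a separate, uninjected cohort, so each AKI difference also holds any difference between cohorts and any effect of the injection. The age and sex of the mice were not given in the sources used here. The labels number the replicates and do not state that they came from separate animals, so the p-values reflect the spread among these arrays, part of which may be technical.

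Monocarboxylate transporters are membrane proteins of the facilitative type. The best known members carry lactate, pyruvate and ketone bodies together with a proton, and reach the cell surface with the help of a partner glycoprotein, basigin or embigin. Others carry aromatic amino acids, carnitine or creatine, and several have no settled substrate. In the kidney, proximal tubule cells take up filtered lactate through sodium-coupled transporters of the Slc5 family, use it as fuel and as a source of new glucose, and exchange monocarboxylates with blood through the Slc16 type.

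Expression is given on the log2 scale as deposited, on which a difference of 1 is a doubling. Levels are compared only within a gene, since the probe sets of different genes do not respond alike. Differences were tested with limma across all 19938 genes, and a gene was called where the Benjamini-Hochberg adjusted p was at or under 0.05. Every adjusted p below is from that fit unless an alternative is named, and ± marks the SE of a difference. Median expression of the arrays lay between 7.00 and 7.09. The targeted gene, Nr3c1, had 8.10, 7.96 and 7.87 in GR-deficient AKI and 8.18, 8.13 and 8.21 in GR-deficient healthy cortex. It had 8.82, 8.89 and 8.86 in control AKI and 9.65, 9.48 and 9.52 in control healthy cortex, so the genotypes did not overlap in either condition. In a fit that estimates a weight for each array, control AKI replicate 1 (weight 0.182) and GR-deficient healthy replicate 1 (0.296) stood apart with the lowest weights. Control AKI replicate 2 had the highest weight of the 12 arrays (5.09), against 0.621 for replicate 3 of its group. Control AKI means in that fit therefore rest mainly on replicate 2. GR-deficient healthy replicate 1 was the lowest of its group for 7 of the 8 members, and control AKI replicate 3 was the highest of its group for 7 of 8.

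Promoter sequence from RefSeq (mouse build GRCm38.p6) was found for 5 of the 8 members, in windows of 300 bases that run from 250 bases before the transcription start to 50 after it. Slc16a6, Slc16a7 and Slc16a13 had no entry. Each window was searched on both strands for AGAACA (a glucocorticoid response element half-site, TGTTCT on the other strand), AGGTCA (a nuclear receptor half-site, TGACCT on the other strand) and CACGTG (an E-box, its own reverse complement). No matches overlapped in these windows. Shown are Slc16a1, higher after AKI in control mice, and Slc16a4 and Slc16a9, lower there, so that windows of members called in opposite directions can be read side by side. Their windows lie at chr3:104638414-104638713, chr3:107290980-107291279 and chr10:70245026-70245325, all on the plus strand, and capitals mark a motif match.
Slc16a1: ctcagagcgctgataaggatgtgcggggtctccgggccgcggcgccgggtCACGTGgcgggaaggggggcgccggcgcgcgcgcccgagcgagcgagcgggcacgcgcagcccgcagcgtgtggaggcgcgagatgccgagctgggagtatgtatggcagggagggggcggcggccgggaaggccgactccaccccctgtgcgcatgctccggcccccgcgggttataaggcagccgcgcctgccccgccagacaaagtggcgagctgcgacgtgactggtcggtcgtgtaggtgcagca
Slc16a4: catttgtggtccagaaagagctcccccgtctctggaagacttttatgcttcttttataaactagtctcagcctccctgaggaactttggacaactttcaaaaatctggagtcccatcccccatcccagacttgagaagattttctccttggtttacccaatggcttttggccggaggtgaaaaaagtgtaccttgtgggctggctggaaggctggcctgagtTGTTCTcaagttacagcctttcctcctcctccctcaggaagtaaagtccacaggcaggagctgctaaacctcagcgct
Slc16a9: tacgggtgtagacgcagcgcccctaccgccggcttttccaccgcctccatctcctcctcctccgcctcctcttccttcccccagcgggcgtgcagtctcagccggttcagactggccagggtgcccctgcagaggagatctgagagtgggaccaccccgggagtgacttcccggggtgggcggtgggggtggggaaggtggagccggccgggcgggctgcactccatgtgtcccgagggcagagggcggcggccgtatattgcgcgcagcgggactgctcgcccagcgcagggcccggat
The Slc16a1 window held 1 CACGTG, starting at -200 from the start site, which 7.15% of the 32851 promoter windows of the table also hold. The Slc16a4 window held 1 TGTTCT, the half-site read on the other strand, at -28, and 19.0% of all windows hold it on either strand. AGGTCA, present in 16.3% of all windows, was in none of the 5 member windows, and those of Slc16a9, Slc16a10 and Slc16a14 held none of the 3 motifs. GC content was 73.7% for Slc16a1, 49.3% for Slc16a4 and 70.7% for Slc16a9, against a median of 52.7% over all windows. A match is a string of letters and not a measured binding site.

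The first question was what injury did to the family in each genotype. After AKI in GR-deficient mice, Slc16a1 and Slc16a6 were higher and Slc16a7 was lower, so 2 of 8 members were called higher, against 3.29% of all genes, and 1 lower, against 1.35%. All genes called there split into 656 higher and 270 lower as deposited, and into 659 and 436 after quantile normalization. After AKI in control mice, 2 of 8 were called higher, the same 2 genes Slc16a1 and Slc16a6, against 13.6% of all genes. Another 4 were called lower there, Slc16a4, Slc16a7, Slc16a9 and Slc16a14, against 15.1% of all genes. Slc16a10 and Slc16a13 were not called in either genotype. With array weights both were called lower in control mice (-0.38, adjusted p = 0.00248 for Slc16a10 and -0.56, adjusted p = 0.00793 for Slc16a13). That made 8 of 8 members called there, in a fit where control AKI rests mainly on replicate 2 (weight 5.09). Replicate 2 was the lowest array of its group for both genes. The median AKI difference of the 8 members was 0.04 in GR-deficient and -1.04 in control mice, and that of all genes was -0.03 in GR-deficient and 0.00 in control mice. In cortex tissue, fewer cells of a type and less RNA per cell cannot be told apart.

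**Figure D1:**
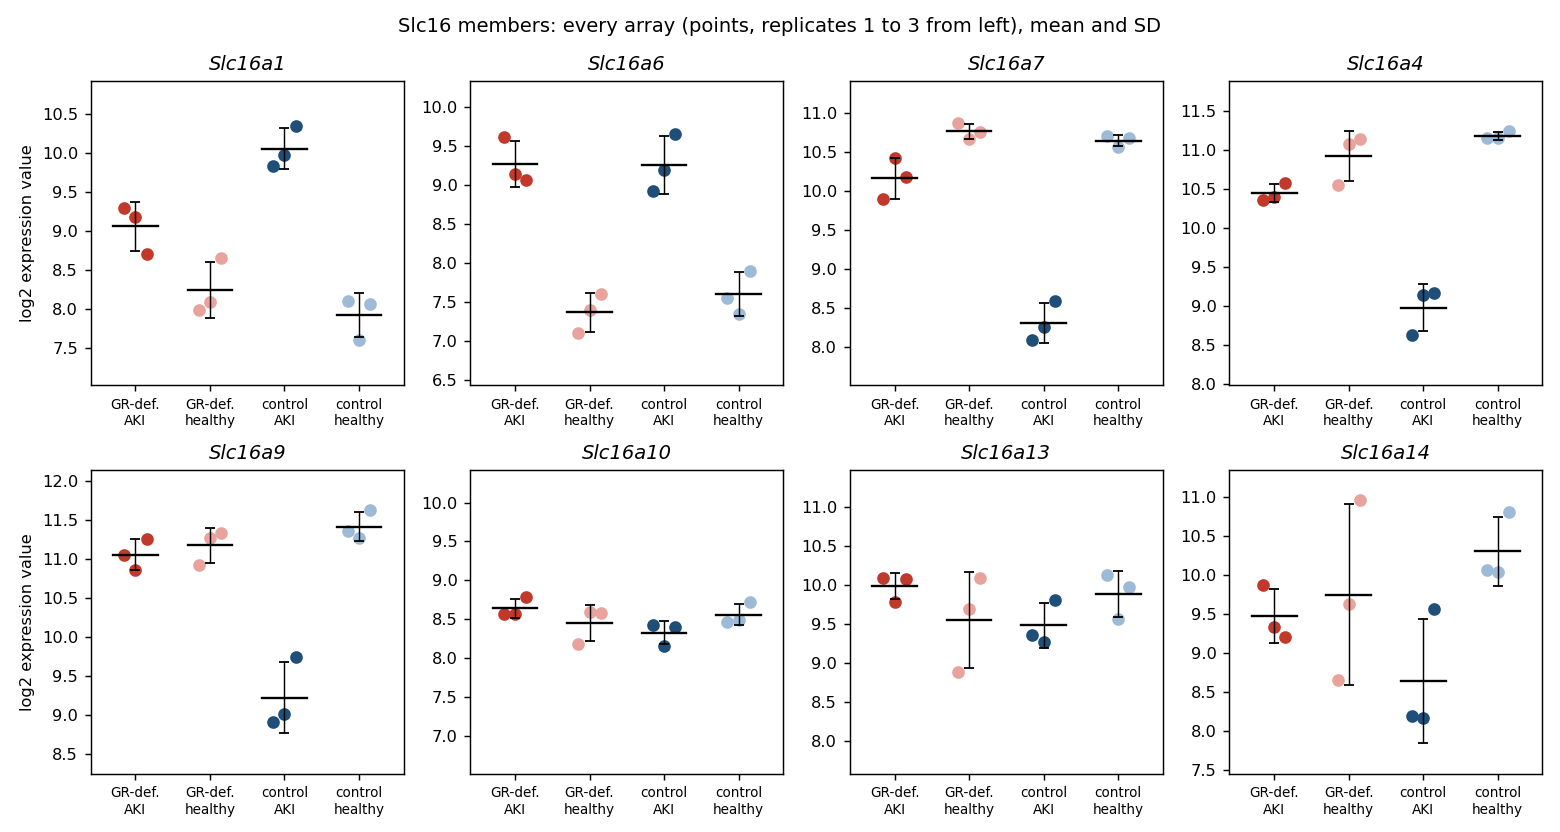
Log2 expression of the 8 Slc16 members (one panel each) in GR-deficient AKI, GR-deficient healthy, control AKI and control healthy cortex, with 1 point per array, a line at the group mean and an error bar of 1 SD (n = 3). Slc16a4, Slc16a7 and Slc16a9 are lowest on the 3 control AKI arrays, while Slc16a6 is high on all 6 AKI arrays.

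Slc16a1 encodes MCT1, the widely expressed proton-coupled carrier of lactate, pyruvate and ketone bodies. It had 9.30, 9.18 and 8.70 in GR-deficient AKI, against 7.98, 8.09 and 8.65 in GR-deficient healthy cortex. In control mice it had 9.84, 9.98 and 10.35 after AKI, against 8.10, 7.60 and 8.07 in healthy cortex. All AKI arrays lay above all healthy arrays, but the gap in GR-deficient mice was narrow, since the lowest AKI array was 8.70 and the highest healthy array 8.65. The AKI difference was 0.82 ± 0.206 in GR-deficient mice (adjusted p = 0.0366, 1.76-fold) and 2.13 ± 0.206 in control mice (adjusted p = 2.02e-06, 4.37-fold). The GR-deficient call was lost without GR-deficient AKI replicate 1 (0.70, adjusted p = 0.197) or 2 (0.76, 0.126), and without GR-deficient healthy replicate 1 (0.69, 0.138) or 2 (0.74, 0.129). It was also lost without control healthy replicate 3, where the difference stayed at 0.82 (adjusted p = 0.0514), and with the replicate number as a block (0.82, adjusted p = 0.0542). With all probe sets in the fit its adjusted p was 0.106, and with only the GR-deficient arrays it was 0.0505. The call in control mice held in all of these fits.

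Slc16a6 encodes MCT7, which exports ketone bodies from the liver in zebrafish. It had 9.61, 9.13 and 9.06 in GR-deficient AKI, against 7.10, 7.39 and 7.60 in GR-deficient healthy cortex. In control mice it had 8.92, 9.19 and 9.66 after AKI, against 7.55, 7.34 and 7.90 in healthy cortex. The 6 AKI arrays all lay above the 6 healthy arrays, and the AKI arrays of the genotypes overlapped. The difference was 1.90 ± 0.204 in GR-deficient mice (adjusted p = 0.000207, 3.74-fold) and 1.66 in control mice (adjusted p = 1.87e-05, 3.16-fold). Both calls held in every alternative that was run.

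Slc16a7 encodes MCT2, a high-affinity carrier of pyruvate and lactate. It had 9.89, 10.42 and 10.17 in GR-deficient AKI, against 10.87, 10.67 and 10.76 in GR-deficient healthy cortex. In control mice it had 8.08, 8.26 and 8.59 after AKI, against 10.70, 10.56 and 10.67 in healthy cortex. AKI arrays were lower than healthy ones in both genotypes with no overlap, and the control AKI arrays were the lowest of the 12. The AKI difference was -0.60 ± 0.146 in GR-deficient mice (adjusted p = 0.0309) and -2.33 in control mice (adjusted p = 5e-08). The GR-deficient call was lost without GR-deficient AKI replicate 1 (-0.47, adjusted p = 0.184) or 3 (-0.61, 0.0704). It was lost too without GR-deficient healthy replicate 1 (-0.55, adjusted p = 0.0998), 2 (-0.65, 0.0627) or 3 (-0.60, 0.0636), and with all probe sets in the fit (adjusted p = 0.0854). The call in control mice held in every alternative that was run.

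Slc16a9 encodes MCT9, linked to carnitine transport. It had 11.05, 10.86 and 11.26 in GR-deficient AKI, against 10.92, 11.27 and 11.33 in GR-deficient healthy cortex. In control mice it had 8.91, 9.01 and 9.75 after AKI, against 11.36, 11.26 and 11.62 in healthy cortex. The control AKI arrays lay below all others, whereas both GR-deficient groups overlapped. The AKI difference was -0.12 in GR-deficient mice (95% interval -0.54 to 0.30, adjusted p = 0.804) and -2.19 in control mice (adjusted p = 9.31e-07, 4.58-fold lower). A second probe set named for Slc16a9 was dim, between 3.81 and 4.34 on all arrays, and gave -0.08 in control mice (adjusted p = 0.826). The values for Slc16a9 therefore rest on 1 of its 2 probe sets.

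Slc16a4 encodes MCT5, a member without a settled substrate. It had 10.37, 10.40 and 10.58 in GR-deficient AKI, against 10.56, 11.08 and 11.14 in GR-deficient healthy cortex. In control mice it had 8.63, 9.13 and 9.17 after AKI, against 11.15, 11.15 and 11.24 in healthy cortex. The control AKI arrays again lay below the other 9, and the GR-deficient groups overlapped by a narrow margin. The AKI difference was -2.21 ± 0.164 in control mice (adjusted p = 1.97e-07, 4.61-fold lower). In GR-deficient mice it was -0.48 (adjusted p = 0.122), and it was called after quantile normalization (-0.50, adjusted p = 0.0379), with array weights (-0.63, 0.00108), without GR-deficient healthy replicate 1 (-0.66, 0.0327) and without control AKI replicate 1 (-0.48, 0.0473).

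Slc16a14, Slc16a13 and Slc16a10 were not called after AKI in GR-deficient mice, and of the 3 only Slc16a14 was called in control mice. Slc16a14 encodes MCT14, another member without a settled substrate. It had 9.87, 9.34 and 9.21 in GR-deficient AKI and 8.66, 9.64 and 10.97 in GR-deficient healthy cortex, with 8.19, 8.17 and 9.56 in control AKI and 10.06, 10.04 and 10.82 in control healthy cortex. The 3 GR-deficient healthy arrays spread around the GR-deficient AKI arrays, while all control AKI arrays lay below all control healthy arrays. In control mice its AKI difference was -1.67 ± 0.471 (adjusted p = 0.0143), and the call was lost without control AKI replicate 1 (-1.44, adjusted p = 0.052) or 2 (-1.43, 0.0674), without control healthy replicate 3 (-1.41, 0.0687) and with a trended robust prior (-1.67, 0.0663). In GR-deficient mice it was -0.28 (adjusted p = 0.81), and without GR-deficient healthy replicate 3 the sign turned (0.33, adjusted p = 0.717).

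Slc16a13 encodes MCT13, a carrier linked to lactate uptake. It ranged from 9.79 to 10.09 in GR-deficient AKI and from 8.88 to 10.09 in GR-deficient healthy cortex, and from 9.27 to 9.81 in control AKI and from 9.56 to 10.12 in control healthy cortex. Its AKI difference was 0.43 in GR-deficient mice (adjusted p = 0.391) and -0.41 in control mice (adjusted p = 0.284), with overlapping arrays in both. Slc16a10 encodes TAT1, a carrier of aromatic amino acids. All 12 of its arrays lay between 8.16 and 8.78, with AKI differences of 0.19 in GR-deficient mice (adjusted p = 0.491) and -0.23 in control mice (adjusted p = 0.243).

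**Figure D2:**
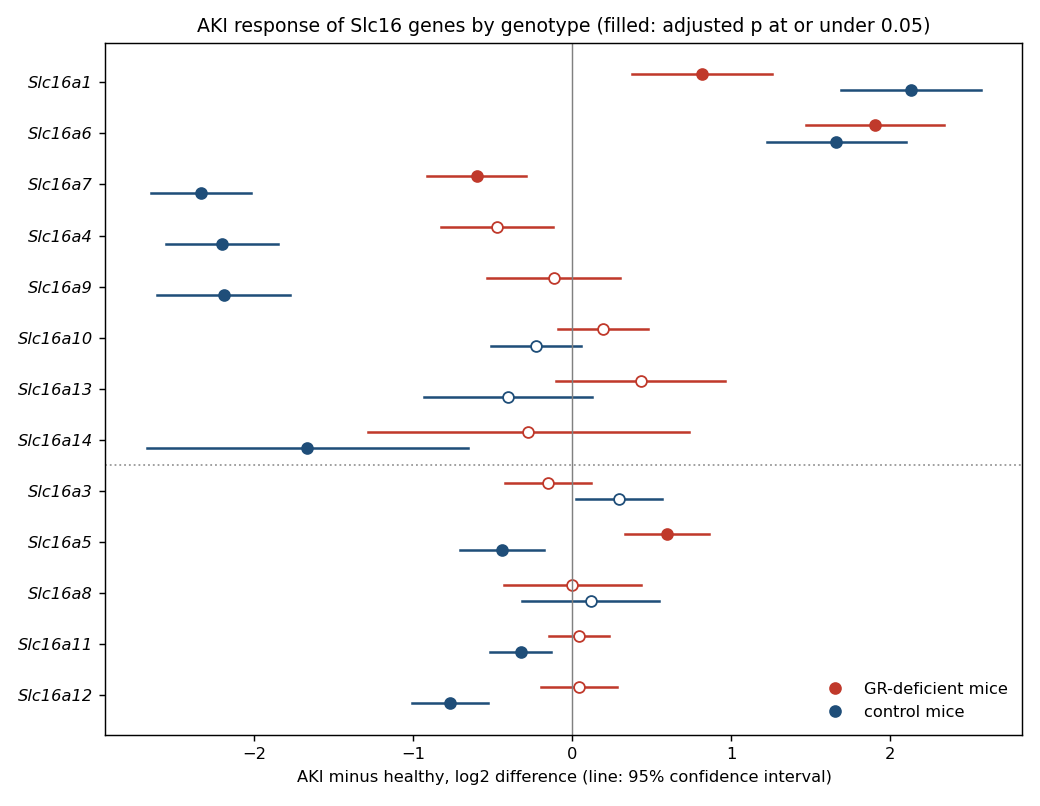
AKI minus healthy log2 differences of the measured Slc16 family genes in GR-deficient and in control mice, with bars for the 95% interval from the limma fit. Slc16a4, Slc16a7 and Slc16a9 lie near -2 in control mice and between -0.60 and -0.12 in GR-deficient mice, and Slc16a6 lies near the same value in both.

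The second question was how far the injured cortices of the genotypes differed. In AKI, Slc16a4, Slc16a7 and Slc16a9 were higher in GR-deficient than in control mice, 3 of 8 members against 10.0% of all genes, and Slc16a1 was lower, 1 of 8 against 7.34%. Slc16a7 was higher by 1.85 (adjusted p = 1.87e-06, 3.61-fold), Slc16a9 by 1.83 (adjusted p = 1.97e-05, 3.56-fold) and Slc16a4 by 1.47 (adjusted p = 2.9e-05, 2.77-fold). For each of these 3 genes every GR-deficient AKI array lay above every control AKI array. Slc16a1 fell by 0.99 (adjusted p = 0.00343), and its highest GR-deficient AKI array, 9.30, lay below the lowest control AKI array, 9.84. Slc16a6 differed by 0.01 (95% interval -0.42 to 0.45, adjusted p = 0.976). Slc16a14 (0.84, adjusted p = 0.277), Slc16a13 (0.50, 0.204) and Slc16a10 (0.31, 0.131) were not called. With array weights, where control AKI rests mainly on replicate 2, all of them were called, by 1.23, 0.64 and 0.42. The AKI comparison between genotypes shares its control AKI arrays with the AKI comparison in control mice.

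In healthy cortex 0 of 8 members were called higher, against 0.0351% of all genes, and 0 lower, against 0.11%, and limma gave 0 of 8 with an unadjusted p under 0.05, against 10.7% of all genes. The differences, GR-deficient minus control, were 0.32 for Slc16a1, -0.26 for Slc16a4, -0.23 for Slc16a6, 0.12 for Slc16a7 and -0.24 for Slc16a9. They were -0.55 for Slc16a14 (95% interval -1.56 to 0.45), -0.33 for Slc16a13 and -0.11 for Slc16a10. For Slc16a4 the 3 GR-deficient healthy arrays lay just below the 3 control healthy arrays, by a smallest gap of 0.02 (adjusted p = 0.626).

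The difference between the 2 AKI responses was tested as an interaction, the response in GR-deficient mice minus that in control mice. It was positive and called for Slc16a9 (2.08, adjusted p = 0.000313), Slc16a7 (1.73, adjusted p = 0.000158) and Slc16a4 (1.73, adjusted p = 0.000331), 3 of 8 members against 7.39% of all genes. It was negative and called for Slc16a1 (-1.31 ± 0.291, adjusted p = 0.00903), 1 of 8 against 4.06%. Over all genes the interaction was called positive for 1473 and negative for 810 as deposited, and for 1377 and 1219 after quantile normalization. For Slc16a6 it was 0.24 ± 0.288 (95% interval -0.37 to 0.86, adjusted p = 0.676), and the interval takes in unequal responses of up to 0.86. Slc16a14 (1.39, adjusted p = 0.224) and Slc16a13 (0.83, 0.156) were called without GR-deficient healthy replicate 3, at 2.00 (adjusted p = 0.0317) for Slc16a14 and 1.10 (adjusted p = 0.0414) for Slc16a13. Slc16a10 gave 0.42 (adjusted p = 0.183). With array weights, where control AKI rests mainly on replicate 2, these 3 members were called as well, which made 7 of 8. The interaction shares all its arrays with the comparisons above and adds no new samples.

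**Figure D3:**
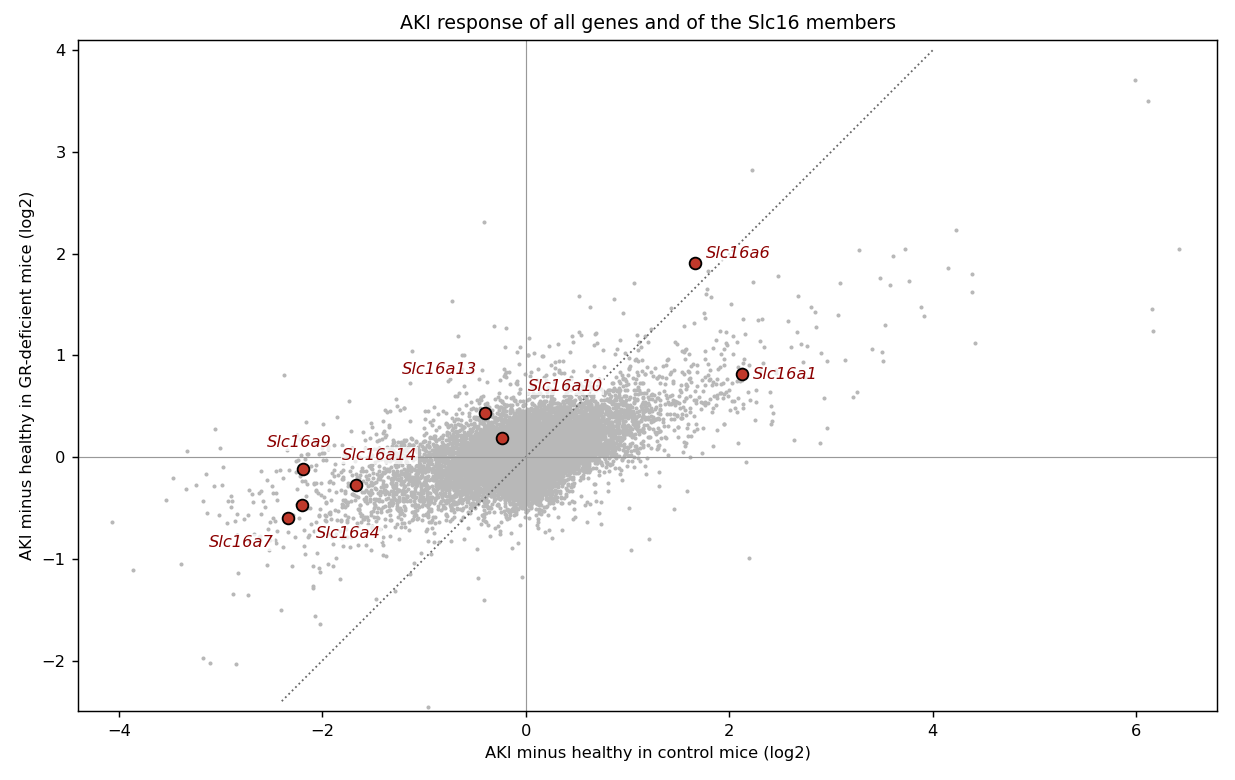
AKI minus healthy log2 difference in control mice (x axis) and GR-deficient mice (y axis) for all 19938 genes (grey points) and the 8 Slc16 members (red, named), with a dotted line where both responses are equal. Slc16a6 lies near the dotted line, and Slc16a4, Slc16a7 and Slc16a9 lie above it at control values near -2.

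Markers of tubule state also differed between the groups. Slc16a4, Slc16a7 and Slc16a9 ran the same way as the proximal tubule markers and as most loop, distal tubule and collecting duct markers counted below. Slc16a1 ran the opposite way. Slc16a6, which differed by 0.01 between genotypes in AKI, did not share that pattern. Over all genes, 3.29% were called higher and 1.35% lower after AKI in GR-deficient mice, and 13.6% and 15.1% in control mice. Between genotypes in AKI, 10.0% were higher and 7.34% lower in GR-deficient mice. The mean over 10 proximal tubule markers ranged from 12.16 to 12.39 in GR-deficient AKI and 12.25 to 12.71 in GR-deficient healthy cortex, and from 10.92 to 11.34 in control AKI and 12.77 to 12.84 in control healthy cortex. After AKI 2 of the 10 were called lower in GR-deficient mice and all 10 in control mice, and in AKI all 10 were higher in GR-deficient than in control mice. The mean over 5 injured tubule markers ranged from 8.37 to 9.18 in GR-deficient AKI and 6.64 to 7.82 in GR-deficient healthy cortex. It ranged from 10.93 to 10.95 in control AKI and from 6.71 to 6.87 in control healthy cortex. The 7.82 was GR-deficient healthy replicate 1 (array weight 0.296), against 6.74 and 6.64 for replicates 2 and 3. Its proximal tubule mean, 12.25, was the lowest of any healthy array. That array enters the AKI difference in GR-deficient mice, the healthy comparison and the interaction, and why it differed was not tested. Of the 5 injured tubule markers, 3 were called higher after AKI in GR-deficient mice and 4 in control mice. In AKI 1 of them was called higher and 4 lower in GR-deficient than in control mice. The mean over 6 neutrophil markers was between 5.44 and 5.76 in GR-deficient AKI and between 5.33 and 5.48 in GR-deficient healthy cortex, against 6.42 to 6.71 in control AKI and 5.12 to 5.49 in control healthy cortex. Of 7 loop and distal tubule markers 3 were called lower after AKI in GR-deficient mice and 5 in control mice, and in AKI 5 were higher in GR-deficient than in control mice. Of 7 collecting duct markers 2 were called lower after AKI in GR-deficient mice and 5 in control mice, and in AKI 5 were higher and 1 lower in GR-deficient than in control mice. Of 7 monocyte and macrophage markers, 2 were called higher after AKI in GR-deficient mice, and 3 higher and 1 lower in control mice. In AKI 1 of the 7 was called higher and 3 lower in GR-deficient than in control mice. Of the 6 neutrophil markers 5 were called lower in that comparison. Of 6 fibroblast and mural markers, 2 were called higher after AKI in GR-deficient mice, and 4 higher and 1 lower in control mice. Of 5 endothelium markers, 0 were called after AKI in GR-deficient mice, and 2 higher and 2 lower in control mice. Of 5 skeletal muscle markers 0 were called in any comparison. The part of a changed cell makeup in the Slc16 values was not tested.

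The other family genes described were Slc16a3, Slc16a5, Slc16a8, Slc16a11 and Slc16a12. Slc16a5, which encodes MCT6, had 8.97, 8.90 and 9.11 in GR-deficient AKI against 8.15, 8.53 and 8.51 in GR-deficient healthy cortex, and 7.88, 7.92 and 8.09 in control AKI against 8.51, 8.43 and 8.27 in control healthy cortex. It was the one measured family gene called in opposite directions, higher after AKI in GR-deficient mice by 0.59 (adjusted p = 0.0136) and -0.44 in control mice (adjusted p = 0.0137), with an interaction of 1.03 (adjusted p = 0.00158). The GR-deficient call was lost without GR-deficient AKI replicate 1 (0.61, adjusted p = 0.0625) or 3 (0.53, 0.0528), and the control call without control healthy replicate 1 (-0.39, adjusted p = 0.0674).

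Slc16a12, the creatine carrier MCT12, was lower after AKI in control mice by a difference of -0.77 (adjusted p = 9.25e-05), with 0.04 in GR-deficient mice (adjusted p = 0.887) and an interaction of 0.81 (adjusted p = 0.00404). Slc16a11, which lies beside Slc16a13 in the mouse genome, gave -0.32 after AKI in control mice (adjusted p = 0.0121), a call lost without control healthy replicate 1 (-0.30, adjusted p = 0.0587). In AKI, 3 of these 5 genes were called higher in GR-deficient than in control mice, against 10.0% of all genes. They were Slc16a5 (1.03, adjusted p = 5.29e-05), Slc16a12 (0.54, adjusted p = 0.00363) and Slc16a11 (0.33, adjusted p = 0.0186). The Slc16a11 call was lost without GR-deficient AKI replicate 3 (0.29, adjusted p = 0.0878) or control AKI replicate 2 (0.31, 0.0661), and with only the AKI arrays (0.33, 0.0658). Slc16a3, the lactate exporter MCT4 of glycolytic cells, was lower in GR-deficient than in control AKI by a difference of -0.39 (adjusted p = 0.0451), and the call was lost in 9 of 12 fits that left out an array, with adjusted p up to 0.145. Slc16a8 was called in no comparison. Over all 13 measured family genes, 3 were called higher and 1 lower after AKI in GR-deficient mice, against 3.29% and 1.35% of all genes. In control mice 2 were called higher and 7 lower, against 13.6% and 15.1% of all genes, so the higher calls were near the share of all genes.

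Genes that act beside the transporters were taken from lists. Those with the smallest adjusted p after AKI in control mice are named. A call of a named gene is therefore no evidence about its list. Of the pair of surface partners, Bsg (basigin) was called lower after AKI in control mice (-0.33) and gave 0.09 in GR-deficient mice, while Emb (embigin) was not called (0.23 in GR-deficient and 0.06 in control mice). The Bsg call was lost after quantile normalization (-0.06, adjusted p = 0.678) and without control AKI replicate 2 (-0.28, 0.0964) or control healthy replicate 1 (-0.31, 0.0849) or 2 (-0.33, 0.0613). Both sodium-coupled monocarboxylate transporters were lower after AKI in control mice. Slc5a8 gave -0.74 in GR-deficient mice, which was called too, and -2.34 in control mice, and Slc5a12 gave -0.38 in GR-deficient mice (adjusted p = 0.599) and -2.90 in control mice. The Slc5a8 call in GR-deficient mice was lost without GR-deficient AKI replicate 1 (-0.66, adjusted p = 0.103) or GR-deficient healthy replicate 2 (-0.63, 0.0749) or 3 (-0.67, 0.0514). Both interactions were called, 1.60 for Slc5a8 and 2.51 for Slc5a12.

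Of 13 measured genes of lactate and pyruvate metabolism, 1 was called higher and 2 lower after AKI in GR-deficient mice. In control mice 2 were called higher and 11 lower. For this and the lists that follow, the shares of all genes called after AKI were 3.29% higher and 1.35% lower in GR-deficient mice. They were 13.6% and 15.1% in control mice, and 10.0% and 7.34% between genotypes in AKI. Pdk4, a kinase that switches off pyruvate dehydrogenase, gave 1.69 in GR-deficient and 3.58 in control mice, and Pdk2 of the same family gave -0.39 in GR-deficient mice (adjusted p = 0.277) and -1.99 in control mice. Pcx, which makes oxaloacetate from pyruvate for glucose synthesis, gave -0.42 in GR-deficient mice (adjusted p = 0.122) and -1.28 in control mice, and the mitochondrial D-lactate dehydrogenase Ldhd gave -0.57 in GR-deficient and -1.08 in control mice. Without GR-deficient AKI replicate 1 the Ldhd call in GR-deficient mice was lost (-0.57, adjusted p = 0.0603). The 2 lower calls of the list in GR-deficient mice became 0 without that array, 4 without control AKI replicate 1, and 1 or 2 without any other array. In AKI, 8 of the 13 were higher and 2 lower in GR-deficient than in control mice. The median of the list was -0.30 in GR-deficient and -0.71 in control mice.

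Of 5 ketone body genes, 4 were called lower after AKI in GR-deficient and 5 in control mice, with medians of -0.56 in GR-deficient and -1.24 in control mice. Oxct1, which activates ketone bodies for use as fuel, gave -0.56 in GR-deficient and -1.24 in control mice. Bdh1, the mitochondrial hydroxybutyrate dehydrogenase, gave -0.86 in GR-deficient and -1.65 in control mice, with an interaction that was not called (0.79) except without GR-deficient healthy replicate 1 (1.05, adjusted p = 0.0103) and with array weights (0.81, 0.00563). Its GR-deficient call was lost without GR-deficient AKI replicate 1 (-0.78, adjusted p = 0.127) or 2 (-0.85, 0.0719) or GR-deficient healthy replicate 1 (-0.61, 0.0696). The call of Acat1, which joins and splits acetoacetyl-CoA (-0.44 in GR-deficient and -1.19 in control mice), was lost in GR-deficient mice in 9 of 12 fits that left out an array, with adjusted p up to 0.178. The 4 calls became 2 without GR-deficient AKI replicate 1 or 2, and 3 or 4 without any other array. In AKI all 5 ketone body genes were higher in GR-deficient than in control mice. Among 8 genes of carnitine and creatine handling, 0 were called in GR-deficient mice and 6 were called lower in control mice. The creatine synthesis enzymes Gatm (-0.21 in GR-deficient and -3.47 in control mice) and Gamt (0.08 in GR-deficient and -1.47 in control mice) and the carnitine transporter Slc22a5 (-0.12 in GR-deficient and -1.02 in control mice) were examples, and in AKI 4 of the 8 were higher in GR-deficient mice.

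Of 12 genes of aromatic amino acid and thyroid hormone handling, 2 were higher and 3 lower after AKI in GR-deficient mice, and 2 higher and 9 lower in control mice. The higher ones in control mice were Slc7a5 (0.58 in GR-deficient and 1.57 in control mice) and its partner chain Slc3a2 (0.40 in GR-deficient and 1.00 in control mice), which together form an exchanger of large neutral amino acids. When single arrays were left out, their GR-deficient calls were lost in 9 of 12 fits for Slc7a5 (adjusted p up to 0.217) and in 10 of 12 for Slc3a2 (up to 0.21). The lower calls of the list in GR-deficient mice then numbered 2 to 4. The thyroid hormone carrier Ttr gave -2.03 in GR-deficient and -3.10 in control mice, and the deiodinase Dio1 gave -1.19 in GR-deficient and -1.82 in control mice. Of 11 genes of the PPAR alpha and PGC1 alpha axis, which drives fatty acid oxidation, 2 were higher and 0 lower in GR-deficient mice, and 5 higher and 2 lower in control mice. One of the higher calls in GR-deficient mice was Angptl4, an inhibitor of lipoprotein lipase (1.15, adjusted p = 0.045), which was lost in 6 of 12 fits that left out an array (adjusted p up to 0.221). The 2 higher calls became 0 without GR-deficient AKI replicate 1 or GR-deficient healthy replicate 1, 4 without control AKI replicate 1, and 1 or 2 without any other array. In control mice the lower calls became 4 without GR-deficient healthy replicate 1, 3 without GR-deficient healthy replicate 3 or control AKI replicate 3, and stayed at 2 otherwise. The lipid droplet protein Plin2 gave 0.59 in GR-deficient (adjusted p = 0.335) and 3.21 in control mice, and the coactivator Ppargc1a gave -0.16 in GR-deficient (adjusted p = 0.703) and -1.50 in control mice. In healthy cortex 0 genes of any of these 7 lists were called between genotypes, against 0.0351% of all genes higher and 0.11% lower. Limma's counts at an unadjusted p under 0.05 were 14 of 53 measured genes (26.4%), against 10.7% of all genes. Those of the 14 named above, Slc5a8, Pdk2, Ldhd, Acat1, Slc22a5 and Ttr, were lower in GR-deficient mice, from -0.51 for Ldhd to -0.32 for Slc22a5. The lists were chosen with earlier results of these data known, so the 26.4% is a description.

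**Figure D4:**
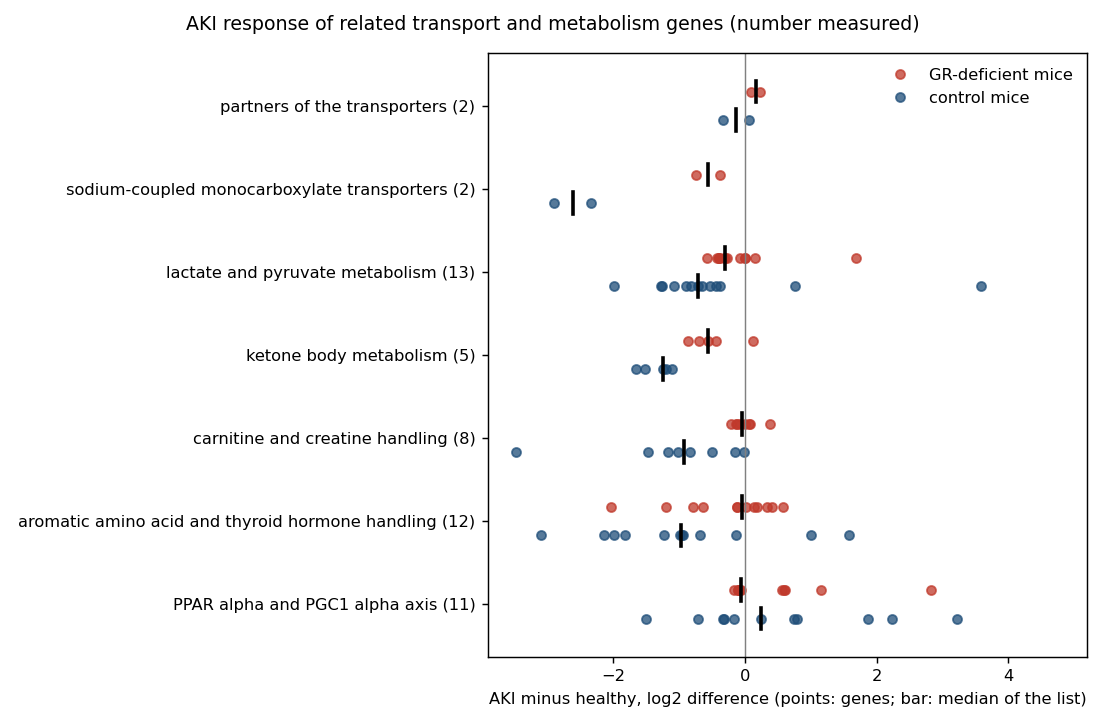
AKI minus healthy log2 differences of the genes in 7 lists of related transport and metabolism genes, with 1 point per gene for GR-deficient and control mice and a black bar at each list's median. The control points of the sodium-coupled transporters, of ketone body metabolism and of carnitine and creatine handling lie at or below 0, and for these 3 lists the medians of GR-deficient mice lie closer to 0.

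The members fell into patterns when compared with each other over the 12 arrays, which share groups and normalization, so the correlations are a description. Slc16a4 and Slc16a9 had a Pearson r of 0.967, Slc16a4 and Slc16a7 of 0.959, and Slc16a7 and Slc16a9 of 0.952. Slc16a1 ran with Slc16a6 (0.871) and against Slc16a4 (-0.889). The order of group means for Slc16a1 was control AKI, GR-deficient AKI, GR-deficient healthy and control healthy, of which the last pair overlapped. For Slc16a6 the pair of AKI groups overlapped each other, as did the pair of healthy groups.

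Slc16a7 (SD of the 4 group means 1.14), Slc16a6 (1.03) and Slc16a9 (1.01) varied most between groups, and for each the genes of most similar pattern were looked up among 1177 genes over the 12 arrays. Closest to Slc16a7 were Iyd (r = 0.995), Qdpr (0.994) and Afm (0.993). Closest to Slc16a6 were Gbe1 (0.981), G6pd2 (0.977) and Bcl3 (0.969), and closest to Slc16a9 were Cckar (0.992), Enpp3 (0.99) and Gstk1 (0.99). Gbe1, the glycogen branching enzyme, gave an AKI difference of 1.47 in GR-deficient and 1.42 in control mice. Iyd, an iodotyrosine deiodinase, gave -0.36 in GR-deficient and -1.28 in control mice, and Cckar, a cholecystokinin receptor, gave -0.09 in GR-deficient and -2.98 in control mice.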

How the data were processed

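Renal cortex RNA was measured on Affymetrix arrays, 3 in each of 4 groups taken from the labels. The deposited values were log2 expression, which the authors obtained by RMA, a multichip averaging method, in oligo and affy. These tools come from the submitters' processing notes, with versions not given in the sources used here. The log base is not stated, and array maxima between 14.7 and 14.9 are in the range of a log2 scale. RMA normalizes the arrays to each other, so a shift common to all genes would not be seen. No count or depth belongs to an array value, and 3 arrays in a group limit the precision. Of 35556 probe sets, 21789 had exactly 1 gene symbol, 1621 several and 12146 no entry in the probe-gene table. The probe set with the highest mean over 12 arrays was kept for each of 19938 genes, with no filter on dim genes.

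Group means were fitted with limma 3.58.1 (lmFit and eBayes) in R 4.3.3, with 8 residual and 6.26 prior degrees of freedom, in 5 comparisons. Two-sided p-values were adjusted by Benjamini-Hochberg over all genes, with a threshold of 0.05. Data of 19938 genes were also simulated. After AKI, a difference of 1 was recovered for 98% of changed genes in GR-deficient mice and 96% in control mice. A difference of 0.5 was recovered for 38% in GR-deficient mice and 32% in control mice. The simulated noise was independent, normal and alike on every array, with fewer changed genes than were called here. These rates are therefore not the power of the real arrays. Alternatives were quantile normalization, leaving out the dimmest genes, a trended robust prior, array weights, all probe sets, the replicate number as a block, leaving out each array, and fitting only the groups compared. The Slc16 members and the 21 gene lists, 13 of them cell type markers, were chosen with earlier results of these data known. Named were all members, other measured family genes and up to 4 genes of a list by smallest adjusted p after AKI in control mice. For 3 members, the 3 genes outside the family with the highest correlation were named too. Those came from genes with an SD of at least 0.5 over the arrays. Promoter windows were taken from RefSeq.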

Additional observations from a re-analysis of the deposited data

Results flagged for a closer look

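Of 13 family genes and 23 genes named from lists, 23 had a called difference between the AKI responses of GR-deficient and control mice. The test was limma's, over all genes (adjusted p at or under 0.05). That difference was called positive for 7.39% of all genes and negative for 4.06%. The list genes were named for the smallest adjusted p after AKI in control mice, a response that the difference subtracts on the same arrays. Their count is therefore a description and no independent evidence. All values below are the response in GR-deficient mice minus that in control mice on the log2 scale.

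Among the transporters the value was -1.31 for Slc16a1, 1.73 for Slc16a4, 1.73 for Slc16a7, 2.08 for Slc16a9, 1.03 for Slc16a5 and 0.81 for Slc16a12. The sodium-coupled carriers gave 1.60 for Slc5a8 and 2.51 for Slc5a12. In lactate and pyruvate metabolism it was -1.89 for Pdk4, 1.59 for Pdk2 and 0.86 for Pcx, and in ketone body metabolism 0.82 for Bdh2, 0.68 for Oxct1 and 0.76 for Acat1. Creatine and carnitine handling gave 3.26 for Gatm, 1.54 for Gamt and 0.90 for Slc22a5. In amino acid and thyroid hormone handling it was 1.07 for Ttr, -0.99 for Slc7a5 and -0.59 for Slc3a2, a call lost without GR-deficient AKI replicate 2 (-0.57, adjusted p = 0.0547) or control healthy replicate 1 (-0.55, 0.0608). Of the genes around fatty acid oxidation, Plin2 gave -2.63, Ppargc1a 1.34 and the hormone Fgf21 -0.88.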

How the results depend on the processing

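With array weights, genes called numbered 3196 after AKI in GR-deficient mice (926 as deposited), 9648 after AKI in control mice (5715), 7000 between genotypes in AKI (3460), 301 between healthy genotypes (29) and 4905 for the interaction (2283), and members called were 4 in place of 3 after AKI in GR-deficient mice, 8 in place of 6 in control mice, and 7 in place of 4 both in AKI and for the interaction. In the weighted fit control AKI replicate 2 had a weight of 5.09, against 0.182 and 0.621 for the other arrays of its group. With all probe sets, 1 member in place of 3 was called after AKI in GR-deficient mice. Between healthy genotypes 11 genes were called with all probe sets, 53 without the dimmest genes, 71 with a trended robust prior and 14 with only those groups. Leaving out 1 array gave 277 to 1448 genes after AKI in GR-deficient mice, 4651 to 6188 in control mice, 2414 to 3906 between genotypes in AKI, 10 to 115 in healthy mice and 1556 to 2696 for the interaction, with 1 to 4, 5 to 6, 4 to 4, 0 to 0 and 4 to 6 members.

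Signs turned in the differences that follow, none of them called except the Slc16a9 interaction. Genes named from lists were looked up here only for the AKI responses and the interaction. Between genotypes in AKI, Slc16a6 was -0.036 after quantile normalization and -0.16 to 0.21 when 1 array was left out, below 0 without GR-deficient AKI replicate 1 or control AKI replicate 1 or 2. Between healthy genotypes, leaving out 1 array gave -0.18 to 0.026 for Slc16a10 and -0.60 to 0.0063 for Slc16a13, above 0 without GR-deficient healthy replicate 1. The dim second probe set of Slc16a9 gave 0.16 between healthy genotypes and an interaction of -0.14, where the other probe set was called at 2.08. Over all alternatives, Slc16a5 ran from -0.074 to 0.12 and Slc16a3 from -0.0087 to 0.10 between healthy genotypes. Slc16a8, called in no comparison, took both signs in each of the 5 comparisons, with -0.20 to 0.13 after AKI in GR-deficient mice over all alternatives. After AKI in GR-deficient mice, leaving out 1 array gave -0.83 to 0.33 for Slc16a14, -0.029 to 0.11 for Slc16a12 and -0.053 to 0.17 for Gamt, and Gamt was -0.0077 after quantile normalization and -0.071 with array weights. For Emb it gave -0.050 to 0.25 after AKI in control mice and an interaction of -0.020 to 0.28, with -0.029 under array weights. The cause was not tested.

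Same-numbered replicates did not pair: of 18 correlations of their deviations, from -0.41 to 0.25, 3 were over 0.1, and 3 of 18 were highest for their own number. With the replicate number as a block, 671, 5368, 3104, 25 and 2013 genes were called in the 5 comparisons above.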
